A study of Mus musculus with 12 samples.

Results

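The stefins and neutrophil protease inhibitors described here were 8 genes, chosen by name from the deposited expression table: the stefin A genes Stfa1, Stfa2, Stfa3, Stfa2l1, and BC100530, and the inhibitors Cstb, Serpinb1a, and Slpi. All 8 of the 8 named genes were among the 23309 genes of the table, and all 8 passed the filter on low values. RNA-seq was done on myeloid progenitors of wild-type C57BL/6 mice and of littermates transgenic for human HMGN1 (HMGN1-OE), which encodes a nucleosome-binding protein. CD117-positive bone marrow cells of both genotypes had been immortalized with a retrovirus for HoxB8 fused to the estrogen receptor and grown with IL-3, so that they stayed immature while estradiol (E2) was present. RNA was taken before (0 h) and 36 and 96 h after withdrawal of E2, with 2 libraries in each of the 6 groups and 12 libraries in all. The promoter that drives the transgene and the age of the mice were not given in the sources used here, and transgene reads were not analysed here. The study describes its RNA-seq libraries as biological duplicates, and the sources used here do not say whether those of a group came from separate mice or cultures. The p-values therefore rest only on the spread between these libraries, which the main fit took from a trend over all tested genes and not from each gene alone.

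Stefins are small cytosolic inhibitors of the cystatin family that block papain-like cysteine cathepsins by inserting a hairpin loop into the active site. Mice carry a multiplied cluster of stefin A genes, and neutrophils and their precursors in the bone marrow are a known site of their expression, while Cstb (stefin B) is expressed in most cells. Serpinb1a is a cytosolic serpin of neutrophils and monocytes that traps the granule serine proteases neutrophil elastase, proteinase 3, and cathepsin G, and Slpi is a secreted WAP-domain inhibitor of elastase and cathepsin G.

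The sequences of the stefins are shown because near-identical genes share reads. Of the 10 pairs among the 5 stefin A genes, coding identity in the GENCODE vM21 transcripts ranged from 73.1% for Stfa1 and Stfa2l1 to 97.9% for Stfa1 and BC100530, and Stfa2 and Stfa2l1 were 96.4% identical. Cstb was 52.1% to 58.6% identical to the stefin A genes. The stretches of 75 coding bases below hold the codons of the inhibitory loop, a motif of glutamine, any residue, valine, any residue, and glycine that occurred once in each coding sequence. The loop codons are in capitals, and the first base of each stretch is coding base 106 in Stfa1, BC100530, and Cstb and coding base 124 in Stfa2, Stfa3, and Stfa2l1.
Stfa1: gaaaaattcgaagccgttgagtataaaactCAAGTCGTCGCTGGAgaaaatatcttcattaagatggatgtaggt
BC100530: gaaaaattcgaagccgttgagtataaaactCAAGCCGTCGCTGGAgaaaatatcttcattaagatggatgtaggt
Stfa2: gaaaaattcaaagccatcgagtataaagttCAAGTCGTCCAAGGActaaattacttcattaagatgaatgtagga
Stfa2l1: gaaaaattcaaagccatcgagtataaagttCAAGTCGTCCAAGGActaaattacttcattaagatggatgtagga
Stfa3: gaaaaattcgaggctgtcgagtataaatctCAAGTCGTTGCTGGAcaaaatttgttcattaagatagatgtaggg
Cstb: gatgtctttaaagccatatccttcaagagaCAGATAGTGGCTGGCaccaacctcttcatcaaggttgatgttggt

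Against Stfa1, BC100530 differed at 1 of the 75 bases, Stfa3 at 10, Stfa2l1 at 13, Stfa2 at 14, and Cstb at 30. In the GENCODE vM21 transcripts, 48.8% of the windows of 36 bases in BC100530 and 44.0% of those in Stfa1 also occurred word for word in a transcript of another gene. The share was 36.5% for Stfa2l1 and 28.9% for Stfa2, and no window of Stfa3, Cstb, or Slpi was shared. For windows of 75 bases the shares fell to 22.4% in BC100530 and 10.7% in Stfa1. The levels of Stfa1 and BC100530, and of Stfa2 and Stfa2l1, were therefore uncertain against each other, as they were against BC117090 and Csta1 (for both Stfa1 and BC100530) and Gm5483 (for BC100530), which shared windows of 36 bases with them, and Stfa2 and Stfa2l1 also shared such windows with Gm4758 and Gm49652, whereas Stfa3 shared no window of either length.

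All 5 stefin A genes lie on chromosome 16, whereas Cstb lies on chromosome 10, Serpinb1a on chromosome 13, and Slpi on chromosome 2. Promoter windows, which reach 250 bases before the annotated start, were found in RefSeq (GRCm38.p6) for 6 of the 8 genes, and those of Cstb and Serpinb1a were not found there. The 120 bases before the start of each stefin A gene are shown because these genes moved together. BC100530 is named Cstdc5 in that table. The capitals mark ACCTTTAAAACC, the longest run of letters that all 5 windows hold.
Stfa1, chr16:36277028-36277147, plus strand: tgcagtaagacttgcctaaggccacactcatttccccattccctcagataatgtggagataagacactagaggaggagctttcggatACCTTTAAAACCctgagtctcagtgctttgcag
Stfa2, chr16:36408364-36408483, minus strand: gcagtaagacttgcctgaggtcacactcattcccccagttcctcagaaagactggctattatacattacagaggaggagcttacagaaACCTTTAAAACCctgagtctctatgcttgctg
Stfa3, chr16:36455393-36455512, minus strand: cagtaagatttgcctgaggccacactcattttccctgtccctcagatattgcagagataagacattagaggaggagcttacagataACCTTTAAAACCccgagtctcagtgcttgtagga
Stfa2l1, chr16:36156691-36156810, plus strand: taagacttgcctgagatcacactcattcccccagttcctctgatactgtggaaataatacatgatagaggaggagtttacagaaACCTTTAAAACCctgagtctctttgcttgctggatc
BC100530, chr16:36367571-36367690, minus strand: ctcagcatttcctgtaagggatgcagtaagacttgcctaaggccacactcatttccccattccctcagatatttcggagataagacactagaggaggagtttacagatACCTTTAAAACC

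The shared run began 32 to 36 bases before the start in Stfa1, Stfa2, Stfa3, and Stfa2l1 and 12 bases before it in BC100530. On either strand it occurred in 10 of 32851 promoter windows of the same length (0.0304%), and it was not in the window of Slpi. Of those windows 9 were on chromosome 16, among them the 5 from which the run was taken, so this share is no test of the run. In pairs, the 5 windows were 54.8% to 84.6% identical over their whole length. GAGGAGGAG was also in all 5 windows, against 1.67% of all windows on either strand. The shorter letters TTTAAAA, which lie within the shared run, were in 3.26% of all windows. All these letters were counted on either strand. AGATAA was in the windows of Stfa1, Stfa3, and BC100530 and in 4.36% of all windows. GAGGAA was in those of Stfa2 and Stfa2l1, as its reverse complement TTCCTC in the letters printed above, and in 11.6% of all. TTNNGNAA was on either strand in 4 of the 5 windows and in 18.0% of all, and TATAAA was in 0 of the 5 and in 6.34% of all. These matches are descriptions of letters, and binding of any factor was not measured here.

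The deposited values were FPKM (fragments per kilobase of transcript, scaled to the mapped fragments of a library) that the authors had scaled to synthetic ERCC RNAs added to a fixed number of cells. Depth is unknown, and a gene without signal was listed near 0.1 FPKM. The summed FPKM of a library ranged from 228955 to 1442573 and was lowest at 96 h, and most genes were lower at 96 h on this scale. The median of the 11516 tested genes fell by 1.75 on the log2 scale from 0 to 96 h in wild-type cells and by 1.28 in HMGN1-OE cells. Differences below are in log2(FPKM + 1), with the limma standard error (SE), and genes with an adjusted p under 0.05 count as called. A second value, the difference after each library was centred on the median of its tested genes, is given where it changes a reading. In these bulk samples, fewer cells of a type and less RNA per cell cannot be told apart.

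The 5 stefin A genes rose between 0 and 96 h in both genotypes, by 34.9-fold to 205-fold in mean FPKM, and reached 612 to 15189 FPKM. BC100530, a stefin A gene under a clone name, was the most abundant of the 8 genes at 96 h. In wild-type cells it was at 176 and 81.8 FPKM at 0 h and at 15189 and 6380 at 96 h, in the order of the table's columns. In HMGN1-OE cells the values were 186 and 110 FPKM at 0 h and 9753 and 9520 at 96 h. Every library at 96 h was above every library at 0 h, by 6.35 ± 0.60 (SE) on the log2 scale in wild-type cells (limma, adjusted p = 2.77e-24) and by 6.06 ± 0.60 in HMGN1-OE cells (limma, adjusted p = 3.20e-22).

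Stfa1, its closest relative by sequence, was at 82.2 and 37.5 FPKM at 0 h and 5917 and 2212 at 96 h in wild-type cells. In HMGN1-OE cells it went from 58.7 and 39.5 to 5744 and 4645 FPKM. The groups did not overlap, and the log2 differences were 5.999 in wild-type cells and 6.71 in HMGN1-OE cells, each with an SE of 0.58.

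Stfa2l1 was at 42.4 and 21.1 FPKM at 0 h and 5481 and 2558 at 96 h in wild-type cells, and at 63.1 and 36.7 and then 3283 and 2455 in HMGN1-OE cells. Stfa2, near-identical to it in sequence, was at 14.5 and 12.6 and then 3517 and 2027 FPKM in wild-type cells, and at 37.6 and 29.9 and then 1479 and 882 in HMGN1-OE cells. Both rose in both genotypes, Stfa2l1 by 6.92 and 5.85 ± 0.57 (SE) and Stfa2 by 7.52 and 5.05 ± 0.55 on the log2 scale. Stfa3, the stefin A gene with no shared window, was at 12.4 and 6.85 FPKM at 0 h and 1627 and 1210 at 96 h in wild-type cells. In HMGN1-OE cells Stfa3 was at 18.4 and 16.6 and then 907 and 612 FPKM. Its rise on the log2 scale was 7.10 in wild-type cells and 5.34 in HMGN1-OE cells (SE 0.53).

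**Figure D1:**
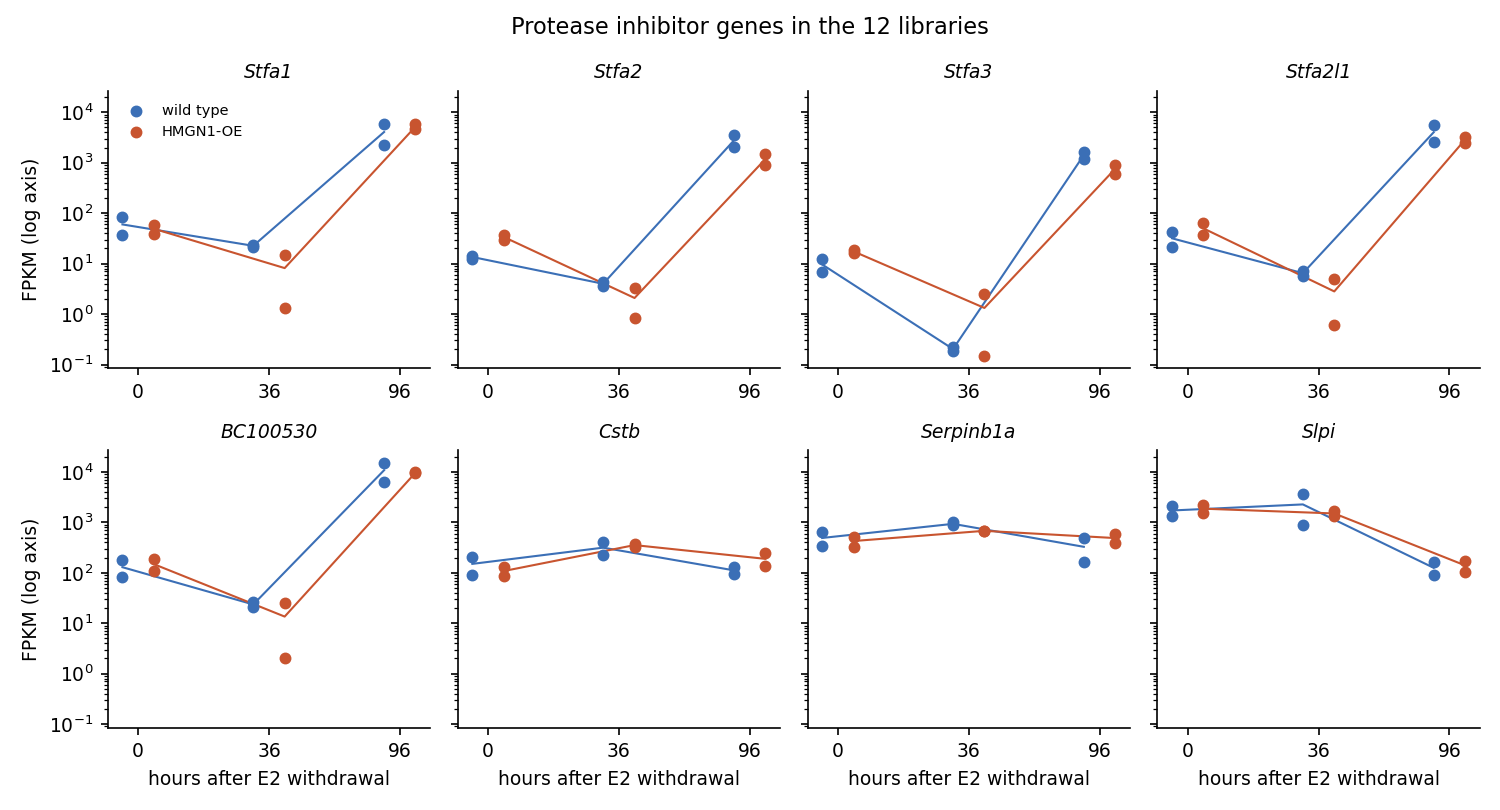
FPKM of the 8 inhibitor genes (log axis) against hours after E2 withdrawal, with 1 point per library and lines through the means of the 2 libraries of a group (blue, wild type; red, HMGN1-OE). The 5 stefin A genes dip at 36 h and reach 612 to 15189 FPKM at 96 h, Cstb and Serpinb1a stay between 84.3 and 995 FPKM in all 12 libraries, and Slpi is between 90.4 and 175 FPKM in the 4 libraries at 96 h.

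Among the 11516 tested genes, the rises of the 5 stefin A genes took ranks 2 to 17 from the highest in wild-type cells and 4 to 35 in HMGN1-OE cells. Higher values at 96 than at 0 h were called for 4.31% of tested genes in wild-type cells and for 5.08% in HMGN1-OE cells, and the called members were the same 5 of 8 genes in each genotype. The libraries did not overlap, with 96 h higher, for 5 of the 8 genes in wild-type cells, against 4.84% of tested genes, and for 6 of the 8 in HMGN1-OE cells, against 7.95%. Lower values were called for 1 of the 8 genes in each genotype, Slpi, against 77.2% of tested genes in wild-type cells and 62.4% in HMGN1-OE cells. The SE comes from limma's trend over expression and not from the gene's own 2 libraries, and from their own spread it would be 0.49 (Stfa2) to 1.04 (BC100530) for the stefins.

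**Figure D2:**
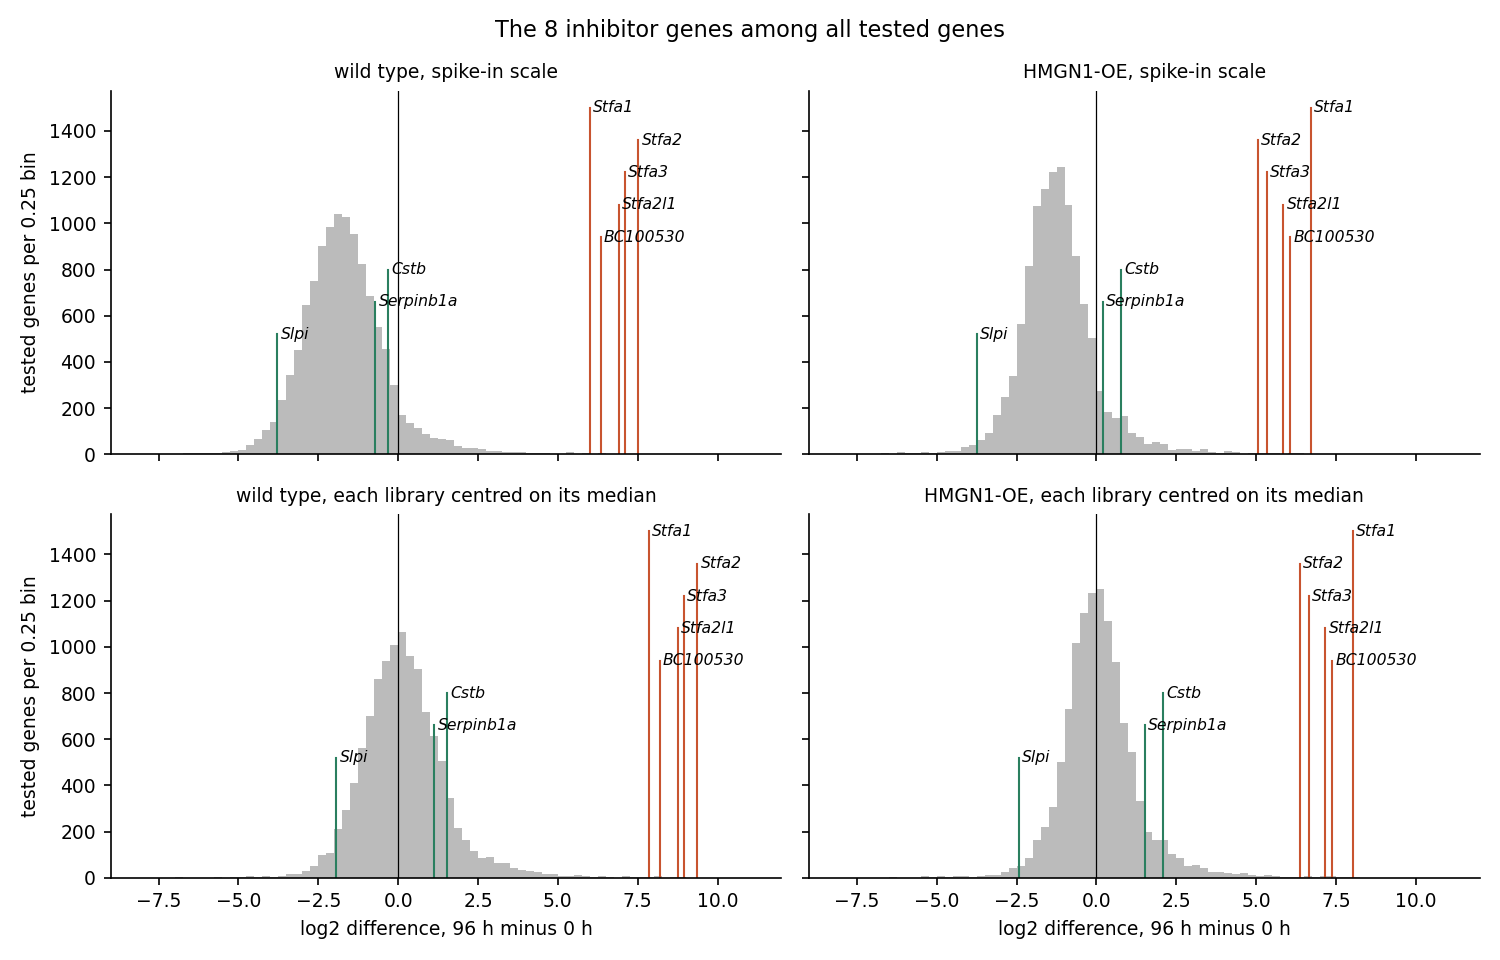
Log2 difference between 96 and 0 h (x axis) of all 11516 tested genes in bins of 0.25 (y axis, genes per bin; grey), with the 5 stefin A genes in red and Cstb, Serpinb1a, and Slpi in green; the height of a coloured line only spaces the labels. The upper panels use the spike-in scale and the lower panels center each library on its median, where Cstb and Serpinb1a move to the right of 0 in wild-type cells.

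The stefins took a large part of each library at 96 h. Their 5 FPKM values summed to 0.0481% and 0.0126% of all FPKM in the wild-type libraries at 0 h and to 7.05% and 6.28% at 96 h. In HMGN1-OE cells the sums went from 0.0345% and 0.0331% to 5.22% and 3.24%, so the 2 wild-type libraries lay above the 2 HMGN1-OE libraries at 96 h, a difference that an exact permutation test cannot bring below p = 0.333 with 2 libraries against 2. A share within a library does not depend on a factor common to all its genes. The sum of all FPKM of the first wild-type library at 96 h holds next to nothing of S100a9, which was listed there at 0.0511 FPKM and at 26546 to 73461 in the other 3 libraries at 96 h, so shares in that library are taken over a sum without that gene. With the other stefin A cluster genes of the table, 10 genes in all, the shares at 96 h were 11.1% and 9.58% in wild-type cells and 8.08% and 5.47% in HMGN1-OE cells. BC100530 ranked 2 or 3 from the top of all 23309 genes in each library at 96 h, and Stfa1 ranked between 7 and 11.

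The make-up of the stefin sum was alike at 0 and 96 h for BC100530, which held 44.3% to 53.8% of it in those 8 libraries. Stfa2 held 4.42% and 7.90% of the sum in wild-type cells at 0 h and 11.1% and 14.1% at 96 h. In HMGN1-OE cells the share of Stfa2 moved the other way, from 10.3% and 12.8% to 6.98% and 4.87%. Stfa1 held 18.7% and 15.4% in wild-type cells and 27.1% and 25.6% in HMGN1-OE cells at 96 h. These shares are not independent of each other, and with reads common to several genes, how they were assigned can move them.

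**Figure D3:**
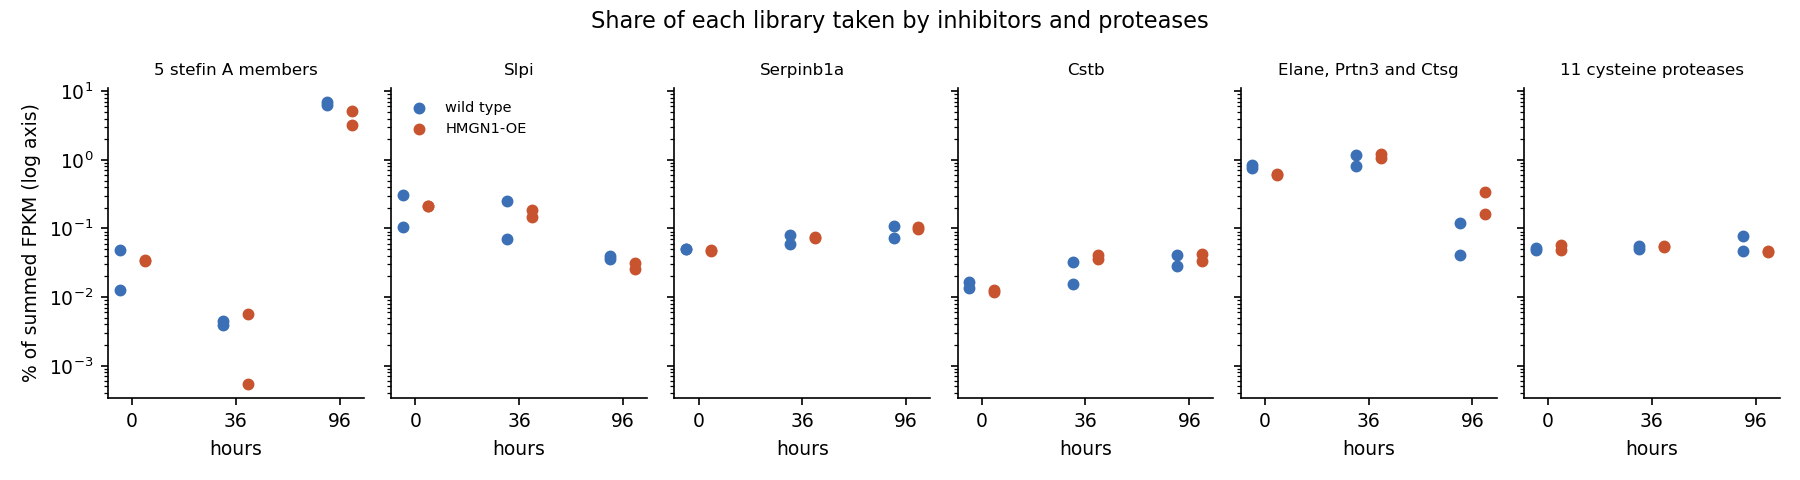
Percent of the summed FPKM of each library (log axis) held by the 5 stefin A genes, Slpi, Serpinb1a, Cstb, the serine proteases Elane, Prtn3, and Ctsg, and 11 cysteine proteases, at 0, 36, and 96 h, with 1 point per library (blue, wild type; red, HMGN1-OE). The stefins go from at most 0.0481% at 0 h to at least 3.24% at 96 h, while the serine proteases go from at least 0.604% to at most 0.337%.

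At 36 h the stefins were below their level at 0 h before they rose. BC100530 was at 21.3 and 25.8 FPKM in wild-type cells and at 25.1 and 2.03 in HMGN1-OE cells, and Stfa1 was at 23.5 and 21.6 and at 15.02 and 1.30. Stfa3 was at 0.186 and 0.219 FPKM in wild-type cells, near the value of a gene without signal, and at 2.50 and 0.1502 in HMGN1-OE cells. Stfa2 was at 3.68 and 4.30 in wild-type cells and 3.34 and 0.826 in HMGN1-OE cells, and Stfa2l1 was at 7.25 and 5.67 and at 5.01 and 0.617. All libraries at 36 h were below all libraries at 0 h of the same genotype for each of the 5 genes.

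Of the 8 genes, 3 were called lower at 36 than at 0 h in wild-type cells (Stfa3, Stfa2l1, and BC100530, with log2 differences of -3.09, -2.06, and -2.31), against 0.261% of tested genes. All 5 stefins were called lower in HMGN1-OE cells, by log2 differences of -4.02 to -3.02, against 1.12% of tested genes. The direction at 36 h held under every alternative, but the calls were lost more often than those at 96 h: without moderation of the variance 0 of the 8 genes were called in either genotype, and after centring on the library median 0 were called in wild-type cells and 1 in HMGN1-OE cells. The differences themselves did not shrink after centring, at -3.57 for Stfa3, -2.79 for BC100530, and -2.54 for Stfa2l1 in wild-type cells and at -4.05 to -3.05 for the 5 stefins in HMGN1-OE cells, and of all 11516 tested genes 1 was then called in wild-type cells, and 9 higher and 6 lower in HMGN1-OE cells. In wild-type cells only Stfa3 kept its call without each of the 12 libraries in turn. BC100530 lost it without the first wild-type library at 0 h and without any 1 of the 4 libraries at 36 h, and Stfa2l1 lost it without any of these or any 1 of the HMGN1-OE libraries at 0 and 96 h. The second HMGN1-OE library at 36 h was the lowest of the 12 for each of the 5 stefins, and without it 2 of the 8 genes were called lower at 36 h in HMGN1-OE cells, while BC100530 (-2.47), Stfa3 (-2.40), and Stfa1 (-1.62) were not. That library was also low in some neutrophil granule genes that are not inhibitors. Ltf (lactoferrin) was at 0.361 FPKM there and 3.13 in the other HMGN1-OE library, and Camp (cathelicidin) was at 1.51 against 9.20. Other neutrophil genes of the marker list differed less, with Lcn2 at 31.1 against 33.8 and Mmp8 at 5.34 against 7.09. The part of these genes in the result was not tested.

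From 36 to 96 h the 5 stefins rose by 7.27 to 10.19 on the log2 scale in wild-type and by 8.54 to 10.08 in HMGN1-OE cells. The value of 10.19, for Stfa3, starts from a level near that of a gene without signal and depends on the pseudocount. All 8 members were called in wild-type cells, 5 higher, against 3.15% of tested genes, and 3 lower, against 86.3%. In HMGN1-OE cells 5 were called higher, against 4.02%, and 1 lower, against 64.9%.

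No member was called between genotypes. At 0 h, where 1.36% of tested genes were called, the lowest adjusted p among the 8 genes was 0.75 (limma), for Stfa2, which was 2.49-fold higher in mean FPKM in HMGN1-OE cells (log2 difference 1.25 ± 0.55 (SE)). At 0 h wild-type and HMGN1-OE libraries did not overlap for 2 of the 8 genes, Stfa2 and Stfa3, both higher in HMGN1-OE cells, against 7.93% of tested genes. At an unadjusted p under 0.05, 1 of the 8 genes passed, against 3.97% of tested genes.

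At 36 h, 0 members were called and 1.26% of tested genes were. At an unadjusted p under 0.05, 3 members passed, Stfa1, Stfa2l1, and BC100530, all lower in HMGN1-OE cells, against 5.15% of tested genes. Stfa1 had a log2 difference of -1.96 ± 0.58 (SE; limma, adjusted p = 0.057), beside a median of -0.54 over all tested genes. The libraries did not overlap for 4 of the 8 genes, against 85.6% of tested genes at this time. Without the first HMGN1-OE library at 36 h, Stfa1 (-3.36) and BC100530 (-3.01) were called, and without the second these differences were -0.55 and 0.093 and not called. Stfa1 was also called without either wild-type library at 96 h, and 1 of the 8 genes was called with a pseudocount of 0.1. At 96 h, 0 members were called and 0.669% of tested genes were, with 1 of the 8 genes and 2.73% of tested genes at an unadjusted p under 0.05. Stfa2 and Stfa3 were lower in both HMGN1-OE libraries than in both wild-type libraries, with log2 differences of -1.22 ± 0.55 and -0.91 ± 0.53 (SE), and Cstb was higher in both, so 3 of the 8 genes did not overlap, against 13.2% of tested genes.

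The order of the genotypes for Stfa2 and Stfa3 thus differed between 0 and 96 h. The interaction of genotype with time was -2.48 ± 0.78 (SE) for Stfa2 at 96 against 0 h (limma, adjusted p = 0.15), and it was not called. Of the 8 genes, 0 were called for the interaction at 36 against 0 h, where 0.504% of tested genes were, and 0 at 96 against 0 h, where 0.677% were, while 4 and 2 of the 8 genes passed at an unadjusted p under 0.05, against 1.91% and 2.90% of tested genes. Without the second wild-type library at 96 h, 1 of the 8 genes, Stfa2, was called for the interaction at 96 against 0 h (-2.87).

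Cstb, the cathepsin inhibitor of most cells, and Serpinb1a, the inhibitor of granule serine proteases, did not share the rise of the stefin A genes. Cstb was at 92.3 and 208 FPKM at 0 h, 404 and 225 at 36 h, and 129 and 94.0 at 96 h in wild-type cells. In HMGN1-OE cells Cstb was at 132 and 84.3, then 379 and 328, and then 136 and 242 FPKM. Its libraries at 36 h were above those at 0 h in both genotypes, but the log2 differences of 1.12 and 1.73 ± 0.59 (SE) were not called (limma, adjusted p = 0.59 and 0.14). The difference in HMGN1-OE cells was called without either wild-type library at 96 h.

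Serpinb1a was at 341 and 638 FPKM at 0 h, 995 and 870 at 36 h, and 488 and 166 at 96 h in wild-type cells, and at 521 and 331, 670 and 686, and 396 and 579 in HMGN1-OE cells. It was highest at 36 h in both genotypes, and the libraries at 0 and 96 h overlapped in both. From 36 to 96 h both genes were called lower in wild-type cells on the spike-in scale, Cstb by -1.44 ± 0.59 and Serpinb1a by -1.71 ± 0.61 (SE) on the log2 scale, and both differences turned to 0.88 and 0.62 and were called higher after centring, as were 38.2% of tested genes. Without the first wild-type library at 36 h neither was called on the spike-in scale (-1.02 and -1.61), nor was Serpinb1a without the second wild-type library at 96 h (-0.93). Over the same step the median of all tested genes fell by 2.21. From 0 to 96 h neither gene was called in either genotype on the spike-in scale, except Serpinb1a in wild-type cells without the first library at 96 h (-1.49), and after centring both were called higher in both genotypes, Cstb by 1.52 and 2.09 and Serpinb1a by 1.13 and 1.52 on the log2 scale in wild-type and HMGN1-OE cells. After centring, higher values were called for 36.5% of all tested genes in wild-type cells and for 30.9% in HMGN1-OE cells. As a share of all FPKM, Serpinb1a went from 0.0502% and 0.0503% to 0.109% and 0.0723% in wild-type cells, and from 0.0494% and 0.0469% to 0.0976% and 0.104% in HMGN1-OE cells. Cstb went from 0.0136% and 0.0164% to 0.0287% and 0.0411% in wild-type cells, and from 0.0125% and 0.0120% to 0.0335% and 0.0432% in HMGN1-OE cells. For both genes each share at 96 h was above each share at 0 h of the same genotype. Of the windows of Serpinb1a, 8.87% (36 bases) and 0.38% (75 bases) were shared with related Serpinb1 genes.

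Slpi was the most abundant of the 8 genes in 7 of the 8 libraries at 0 and 36 h, and in the first wild-type library at 36 h it was second to Serpinb1a. It was at 2113 and 1320 FPKM at 0 h, 877 and 3651 at 36 h, and 160 and 90.4 at 96 h in wild-type cells. In HMGN1-OE cells it was at 2221 and 1505, then 1688 and 1308, and then 105 and 175 FPKM. Slpi fell between 0 and 96 h in both genotypes, by log2 differences of -3.78 and -3.74 ± 0.62 (SE; limma, adjusted p = 7.05e-09 and 2.10e-08), and after centring by -1.94 and -2.43, which were also called, as were lower values for 33.8% and 32.5% of all tested genes. As a share of all FPKM, Slpi went from 0.311% and 0.104% at 0 h to 0.0356% and 0.0395% at 96 h in wild-type cells, and from 0.211% and 0.214% to 0.0259% and 0.0313% in HMGN1-OE cells. Every library at 96 h was thus below every library at 0 h on this measure too. The 2 wild-type libraries at 36 h lay on both sides of every other library at 0 and 36 h, and the difference between 36 and 0 h was not called in either genotype (limma, adjusted p = 0.90 and 1.0).

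The serine proteases counted here are targets of Serpinb1a, and elastase and cathepsin G are also targets of Slpi. From 0 to 96 h, 3 of 3 genes were called lower in wild-type cells, and in HMGN1-OE cells 1 was called lower and 1 higher. Lower values were called for 77.2% and 62.4% of all tested genes over this step, and higher values for 4.31% and 5.08%. Elane (neutrophil elastase), Prtn3 (proteinase 3), and Ctsg (cathepsin G) are made by promyelocytes and stored in primary granules. Ctsg was at 3862 and 7413 FPKM at 0 h and 107 and 20.6 at 96 h in wild-type cells, and at 5683 and 3711 and then 151 and 479 in HMGN1-OE cells. It was called lower in both, by -6.79 and -4.09 ± 0.63 (SE) on the log2 scale. Elane was at 409 and 867 FPKM at 0 h, 2864 and 1109 at 36 h, and 129 and 21.7 at 96 h in wild-type cells, and at 106 and 74.0, 1772 and 1260, and 168 and 554 in HMGN1-OE cells. Elane fell from 0 to 96 h in wild-type cells (-3.46 ± 0.60 (SE)) and rose in HMGN1-OE cells (1.78 ± 0.60), with an interaction of 5.23 (limma, adjusted p = 3.77e-07). Prtn3 fell in wild-type cells (-3.64 ± 0.62) and its difference in HMGN1-OE cells was -0.08. Against wild-type cells, Elane was lower in HMGN1-OE cells at 0 h (-2.74) and higher at 96 h (2.50), and Ctsg was higher at 96 h (2.48). None of these genotype differences was called after centring. The second libraries at 96 h weighed on them: without the second HMGN1-OE library at 96 h the rise of Elane in HMGN1-OE cells was 0.92 and not called, as it was not without the second HMGN1-OE library at 0 h (1.52). The differences between genotypes at 96 h were then 1.64 for Elane and 1.66 for Ctsg, and without the second wild-type library 1.24 and 1.32, none of them called. Without that library the falls in wild-type cells were still called, at -2.20 for Elane and -2.39 for Prtn3. The call of Ctsg at 96 h was also lost without either HMGN1-OE library at 36 h, and that of Elane at 0 h without the second library at 0 h of wild type (-2.20) or HMGN1-OE (-2.48). Without the first wild-type library at 96 h the differences were larger: Elane was 3.76 higher in HMGN1-OE cells at 96 h on the log2 scale, the difference of Prtn3 at that time went from 2.12, not called, to 3.37 (limma, adjusted p = 4.896e-05), and the interaction of Ctsg went from 2.70, not called, to 3.86 (limma, adjusted p = 0.001386).

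**Figure D4:**
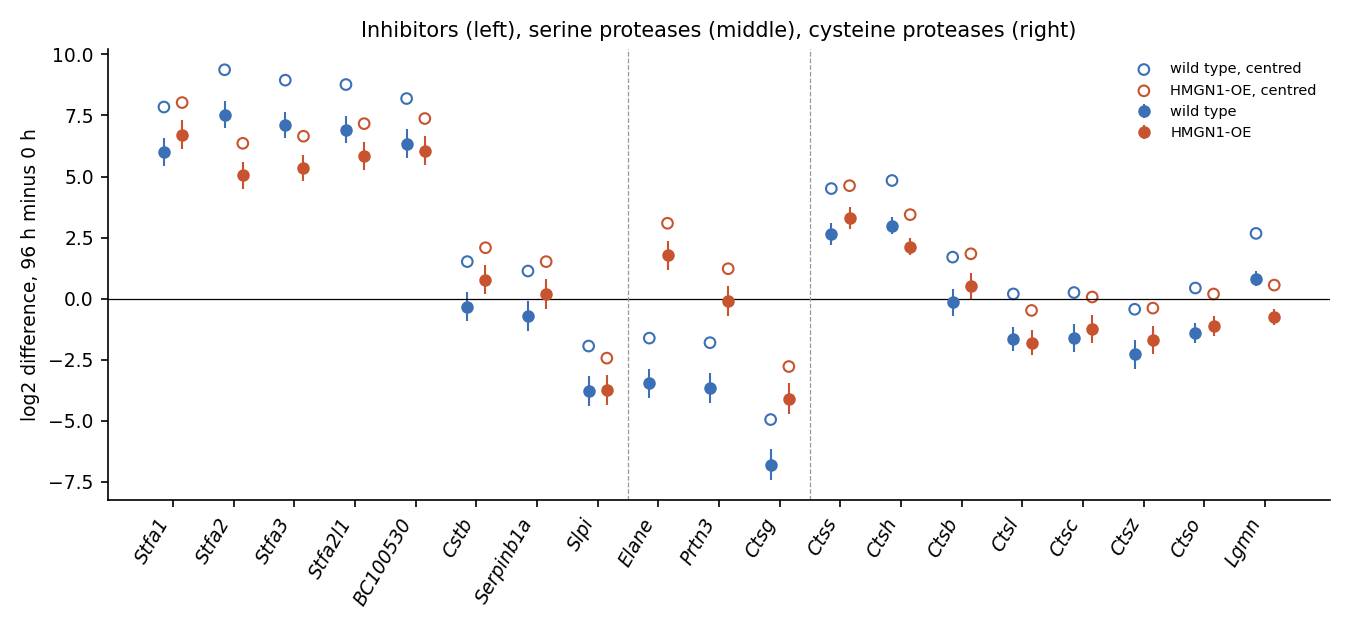
Log2 difference between 96 and 0 h for the 8 inhibitors, 3 serine proteases, and the 8 tested cysteine proteases (blue, wild type; red, HMGN1-OE), with filled points and the limma SE on the spike-in scale and open points after centring on the library median. The stefins stand at 5.05 to 7.52 on the spike-in scale, and Elane is the gene whose genotypes lie on both sides of 0 on both scales.

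The cysteine proteases did not move as one group on the spike-in scale. The 11 listed were 10 papain-like cathepsins, the class that stefins block, and Lgmn (legumain), a protease of another family, and 8 passed the filter. From 0 to 96 h, 3 were called higher and 4 lower in wild-type cells, with a median of -0.78, and 2 higher and 5 lower in HMGN1-OE cells, with a median of -0.94, beside the medians of -1.75 and -1.28 of all tested genes. Without Lgmn, 2 were called higher and 4 lower in each genotype. Over all tested genes, 4.31% were called higher and 77.2% lower in wild-type cells, and 5.08% and 62.4% in HMGN1-OE cells. After centring, 4 of the 8 were called higher in wild-type cells and 3 in HMGN1-OE cells, and 0 lower. On that scale 36.5% and 30.9% of all tested genes were called higher, and 33.8% and 32.5% lower. Ctss (cathepsin S) was at 0.963 and 12.7 FPKM at 0 h and 19.4 and 51.9 at 96 h in wild-type cells, and at 1.41 and 1.30 and then 19.8 and 25.3 in HMGN1-OE cells. It rose by 2.66 and 3.31 on the log2 scale, and Ctsh (cathepsin H) rose by 2.99 and 2.13. Ctsh passed the filter only through its libraries at 96 h. The rise of Ctss in wild-type cells was 1.26 without the first library at 0 h and 4.06 without the second, called in both cases. In the second wild-type library at 0 h several monocyte markers were also high, with Ccr2 at 35.7 against 3.60 FPKM in the first, Irf8 at 15.2 against 2.72, and Ly86 at 6.64 against 1.25. Emr1 was at 55.4 against 47.6, and all FPKM of these libraries summed to 1268121 against 680258. At 36 h in wild-type cells Ctss was at 13.3 and 1.18 FPKM and Ccr2 at 38.3 and 7.32, while Ly86 was at 0.403 and 2.19. The part of these markers in the level of Ctss was not tested. Ctsb (cathepsin B), between 25.8 and 70.0 FPKM in all 12 libraries, was not called from 0 to 96 h on the spike-in scale, with log2 differences of -0.14 and 0.53, and was called higher after centring, with 1.70 and 1.84.

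Ctsl, Ctsc, Ctsz, and Ctso were called lower in both genotypes, by -1.12 to -2.28 on the log2 scale, and none of them was called lower after centring, where Ctsc and Ctso changed sign in both genotypes and Ctsl in wild-type cells. Lgmn was called higher in wild-type (0.83) and lower in HMGN1-OE cells (-0.75), at levels of 0.325 to 3.01 FPKM. Without the second wild-type library at 96 h the difference of Lgmn in wild-type cells was 0.15 and not called, as it was not without the second at 0 h (0.74), and the difference in HMGN1-OE cells was not called without any 1 of its 4 libraries. In HMGN1-OE cells these 4 cathepsins lost the call without the first library at 0 h, at -0.80 for Ctsc, -1.03 for Ctso, -1.28 for Ctsz, and -1.43 for Ctsl, Ctso and Ctsz also without the first at 96 h, and Ctsc without either library at 96 h or any 1 of the 4 at 36 h. In wild-type cells Ctsl (-1.13) and Ctsc (-1.17) lost it without the second library at 0 h. Ctsk, Ctsw, and Ctsf did not pass the filter. Together the 11 genes held 0.0453% to 0.0779% of all FPKM in each library, so at 96 h the 5 stefins summed to more FPKM than these proteases in every library, while at 36 h they summed to less.

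The genes whose pattern was most like the mean of the 5 stefins were the cluster genes BC117090, Gm5483, and 2010005H15Rik and the neutrophil secondary granule genes Ltf and Ngp, with Pearson's r of 0.993 to 0.999 over the 12 libraries, each centred on its median, among 8906 genes with a mean of at least 5 FPKM. The 12 libraries share 3 time points and the cluster genes share sequence with the stefins, so such values are a description. The 5 stefins had r of 0.974 to 0.997 with each other over the same libraries, and the part of reads in common was not tested. Of the 6 other stefin A cluster genes listed, 5 were in the table and 4 passed the filter. All 4 were called higher at 96 than at 0 h in both genotypes, against 4.31% and 5.08% of tested genes, with medians of 6.42 and 6.21 beside -1.75 and -1.28 for all tested genes. Among them Gm5416 passed the filter only through its libraries at 96 h. Gm5483 reached 12382 and 5008 FPKM in wild-type cells, with 7819 and 8913 in HMGN1-OE cells at 96 h. It was also called lower at 36 h in HMGN1-OE cells, at 17.7 and 1.81 FPKM against 24.2 and 35.3 in wild type, with a log2 difference of -2.06 that was not called after centring (-1.48). That call rested on the second HMGN1-OE library at 36 h, which was low for every stefin: without it the difference was -0.69 and not called, and without the first it was -3.43 and called. It was lost without 8 of the 12 libraries, each left out in turn.

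The patterns most like Cstb were those of Tgm2, Usb1, Socs3, Sgsm3, and Arl11 (r of 0.96 to 0.971), and those most like Serpinb1a were Tagln2, Becn1, Rab28, Ndufv3, and Iah1 (r of 0.974 to 0.982). Those most like Slpi were Clnk, Gpc3, F2rl3, Xpo7, and H2-T9 (r of 0.974 to 0.982). The pattern of Slpi at 36 h in wild-type cells, with a low first and a high second library, was also that of Gpc3, a cell surface proteoglycan, at 15.4 and 222 FPKM. Those 2 libraries also differed in cell type markers. The progenitor genes Cd34 and Flt3 were low in the first, at 264 and 1105 FPKM and at 4.10 and 67.02, whereas Kit, Myb, and Myc differed by at most 1.26 times. The mast cell and basophil genes Cpa3 and Ms4a2 were high in the first, at 2013 and 554 FPKM and at 62.0 and 8.52. The part of these cell types in the level of Slpi was not tested.

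Of the cell type markers, most of those of neutrophils rose with the stefins, and so did the eosinophil genes Prg2, Epx, and Prg3. From 0 to 96 h, the step of the counts below, 4.31% of all tested genes were called higher and 77.2% lower in wild-type cells, and 5.08% higher and 62.4% lower in HMGN1-OE cells. Of the 12 neutrophil markers, the 10 without S100a8 and S100a9 summed to 245 to 374 FPKM in the 4 libraries at 0 h, 60.8 to 287 at 36 h, and 11258 to 26614 at 96 h. S100a8 and S100a9 were left out of that sum for the listing of S100a9 near 0 in 1 library. From 0 to 96 h, 10 of the 12 were called higher and 2 lower in wild-type cells, S100a9 with that listing and Mmp8, and 11 higher and 1 lower, Mmp8, in HMGN1-OE cells. Among the 12, Mmp9 passed the filter only through its libraries at 96 h. Mmp8 (neutrophil collagenase) was at 55.7 and 204 FPKM at 0 h and 33.4 and 60.4 at 96 h in wild-type cells, and at 55.6 and 63.3 and then 15.3 and 12.5 in HMGN1-OE cells. Its log2 differences were -1.23 and -2.03, neither called after centring, where the first turned to 0.62, and the first was -0.30 without the second wild-type library at 0 h and -0.81 without the first at 96 h, called in neither case, nor without either HMGN1-OE library at 36 h. The progenitor genes Kit, Cd34, Myb, Flt3, and Myc summed to 878 to 2083 FPKM at 0 and 36 h and to 20.7 to 64.6 at 96 h, and all 5 were called lower at 96 than at 0 h in wild-type cells and 4 in HMGN1-OE cells, where most tested genes were also called lower. After centring, 4 of the 5 were called lower in each genotype and 1 higher in HMGN1-OE cells, beside lower values for 33.8% and 32.5% of tested genes. Kit, the gene of CD117, was at 25.0 and 47.6 FPKM at 0 h and 12.3 and 5.23 at 96 h in wild-type cells, and at 13.4 and 12.1 and then 9.58 and 8.85 in HMGN1-OE cells. The 10 eosinophil, basophil, and mast cell markers summed to 414 to 2737 FPKM at 0 and 36 h and to 310 to 2573 at 96 h. Of the 9 that passed the filter, 5 were called higher and 2 lower from 0 to 96 h in wild-type cells, and 4 higher and 2 lower in HMGN1-OE cells. After centring, 6 were called higher and 0 lower in wild-type cells, and 5 higher and 1 lower in HMGN1-OE cells. Higher values were then called for 36.5% and 30.9% of all tested genes, and lower values for 33.8% and 32.5%. Prg2, an eosinophil granule protein, went from 9.88 and 2.54 FPKM at 0 h to 1970 and 933 at 96 h in wild-type cells. In HMGN1-OE cells Prg2 went from 19.8 and 12.1 to 186 and 472. Epx went from 1.64 and 0.409 to 153 and 49.1 FPKM in wild-type cells and from 4.72 and 4.33 to 14.1 and 25.3 in HMGN1-OE cells. Prg3 went from 0.709 and 0.432 to 96.4 and 36.4 FPKM and from 0.852 and 0.658 to 9.15 and 23.6. Cpa3, a mast cell protease, was at 255 and 540 FPKM at 0 h and 159 and 155 at 96 h in wild-type cells. The 10 monocyte and macrophage markers in the table summed to 69.3 to 215 FPKM at 0 and 36 h and to 81.6 to 117 at 96 h. Of the 8 that passed the filter, 2 were called higher and 3 lower in wild-type cells, and 2 higher and 2 lower in HMGN1-OE cells. The 6 erythroid markers summed to 1.06 to 40.6 FPKM in all libraries. The 6 lymphoid markers summed to at most 2.17 FPKM and the 4 epithelial markers to at most 2.47 in every library, and Cd3e, Ms4a1, and Krt5 were listed at 0.0967 to 0.105 FPKM, the value of a gene without signal. The part of any of these cell types in the levels of the 8 genes was not tested.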

How the data were processed

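RNA-seq of 12 libraries was analysed from the table that the authors deposited, which holds FPKM per gene after loess normalization to ERCC spike-in RNAs. The submitters' processing notes name HISAT, Cufflinks 2.0.0, and mm9, and the study's methods name Bowtie, so the aligner that made the table could not be settled. The 92 ERCC rows were removed. Columns were matched to groups by genotype and time; 0 columns were left unused. Values were converted to log2(FPKM + 1), and 11516 of 23309 genes (49.4%) were kept, those that reached 1 FPKM in 2 or more libraries. Group means of the 6 groups were fitted with limma 3.58.1 in R 4.3.3 (lmFit, eBayes with trend), and 11 contrasts were tested with 2-sided p-values, each adjusted by Benjamini-Hochberg over all tested genes and called under 0.05. The prior degrees of freedom were infinite, so the spread of a gene's own libraries does not enter its SE or p. The smallest p of an exact permutation test of 2 libraries against 2 is 0.333. Alternatives were a pseudocount of 0.1, no filter, a mean of at least 5 FPKM, centring on the median, quantile normalization, only the groups compared, no trend, no moderation, and leaving out each library.

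The 8 members, the lists of related genes, and the markers were chosen with earlier results of these data known. All 8 members and all listed proteases were named. From each other list, at most the 4 genes with the largest change among those called between 96 and 0 h were named, and for likeness the 5 genes with the highest Pearson's r. Mmp8, Mmp9, Lcn2, Ccr2, Irf8, Ly86, Emr1, S100a9, Prg2, Prg3, Epx, Cpa3, Ms4a2, Kit, Cd34, Flt3, Cd3e, Ms4a1, Krt5, Ltf, and Camp were named from the marker lists after their values were seen. Depth per library is unknown. Transcript sequences came from GENCODE vM21 and promoter windows from RefSeq (GRCm38.p6), read with Biopython 1.88 in Python 3.11.15; they served only for sequence and not for coordinates of the deposited values. Coordinates of genes on mm9 were not used here.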

Additional observations from a re-analysis of the deposited data

Results flagged for a closer look

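The change of Elane (neutrophil elastase) from 0 to 96 h differed between genotypes by 5.23 ± 0.85 (SE) on the log2 scale (limma interaction of genotype with time, adjusted p = 3.77e-07), with 2 libraries in each group. The difference was 4.70 after each library was centred on its median, where it was not called (limma, adjusted p = 0.34). For Prtn3 (proteinase 3) the same interaction was 3.56 ± 0.88 (SE; limma, adjusted p = 0.00876), and 3.03 after centring (limma, adjusted p = 0.42). Both proteases fell from 0 to 96 h in wild-type cells, and in HMGN1-OE cells Elane rose and Prtn3 was not called. Without moderation of the variance or without a filter on low values neither was called (adjusted p = 0.77 and 0.82 for both), and after quantile normalization the values were 4.53 and 2.92, not called. Elane kept its call without each library in turn, whereas Prtn3 lost it without the second library of either genotype at 0 h (2.88 wild type, 3.26 HMGN1-OE) or at 96 h (2.30 and 2.91), without the trend, and with the other groups left out of the fit (adjusted p = 0.13 in both settings). Estimated from each gene alone, the SE of these interactions would be 1.46 for Elane and 1.35 for Prtn3.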

How the results depend on the processing

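The rises of the 5 stefins to 96 h, from 0 and from 36 h, kept their direction and their call in both genotypes under every alternative and without each library in turn. The differences from 0 to 36 h kept their direction for the 5 stefins but not all their calls. For HMGN1-OE cells, where 5 members were called, 1 was called after centring each library on its median, 1 after quantile normalization, and 0 with no moderation or with no filter; leaving out each library in turn gave 2 to 6, the sixth being Cstb, called higher. For wild-type cells, where 3 were called, 0 were called after centring, after quantile normalization, with no moderation, or with no filter, 1 without the trend, and 1 when the other groups were left out of the fit; leaving out each library in turn gave 1 to 3. Between genotypes at 36 h, where 0 were called, a pseudocount of 0.1 gave 1 and leaving out each library gave 0 to 2. For the interaction at 96 against 0 h, leaving out each library gave 0 to 1.

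Signs turned mostly with the scale. After centring and after quantile normalization, in that order, the log2 difference from 0 to 96 h in wild-type cells was 1.52 and 1.74 for Cstb, 1.13 and 1.34 for Serpinb1a, 1.70 and 1.94 for Ctsb, 0.25 and 0.53 for Ctsc, 0.20 and 0.24 for Ctsl, 0.44 and 0.076 for Ctso, and 0.62 and 0.82 for Mmp8. In HMGN1-OE cells it was 0.071 and 0.29 for Ctsc and 1.23 and 1.31 for Prtn3. From 36 to 96 h it was 0.88 and 1.16 (wild type) and 0.39 and 0.50 (HMGN1-OE) for Cstb, and 0.62 and 0.87 and then 0.84 and 0.93 for Serpinb1a. Slpi from 0 to 36 h in wild-type cells was -0.38 and -0.40. After centring alone the signs also turned from 0 to 96 h for Ctso (0.19) and Lgmn (0.56) in HMGN1-OE cells, Serpinb11 (0.71 in wild-type cells and 0.48 in HMGN1-OE cells), and Serpinb9 (0.38 and 0.18). Of the 88 differences of the 8 genes, 14 turned sign after centring and 13 after quantile normalization. Those between genotypes that turned after centring, none of them called on either scale, were at 36 h Serpinb1a (-0.46 to 0.12) and Slpi (-0.27 to 0.31), at 96 h Slpi (0.17 to -0.23), and in the interactions Stfa3 (-0.11 to 0.34), Serpinb1a (-0.29 to 0.16), and Slpi (-0.40 to 0.049) at 36 h and Slpi (0.040 to -0.49) at 96 h. Both settings remove a shift common to most genes by construction.

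Without each library in turn, sign turned within these ranges: from 0 to 96 h in wild-type cells, -0.91 to 0.25 for Cstb, -1.49 to 0.064 for Serpinb1a, and -0.68 to 0.40 for Ctsb; in HMGN1-OE cells, -0.12 to 0.53 for Serpinb1a and -0.74 to 0.57 for Prtn3; from 0 to 36 h in wild-type cells, -0.93 to 1.13 for Slpi. Between genotypes the ranges were -3.01 to 0.093 for BC100530 and -0.064 to 1.54 for Stfa3 at 36 h, -0.66 to 0.59 for BC100530, -0.20 to 1.22 for Stfa1, and -0.95 to 0.15 for Stfa2l1 at 96 h, and -0.69 to 0.25 for Ctsg at 0 h. None of these was called with all libraries. A group left with 1 library was assumed to vary like the others. No paired analysis was possible because the columns carry no replicate number of the sample titles. Depth is unknown, and genes listed near 0.1 FPKM could not be compared.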

Other observations

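Other inhibitor families were counted beside the stefin A genes. Of the 12 other cystatins listed, 2 passed the filter. Cst7 (cystatin F), a cystatin of the endosomes of immune cells, was called lower at 96 than at 0 h in both genotypes. It was at 386 and 707 FPKM at 0 h and 42.5 and 11.4 at 96 h in wild-type cells, and at 645 and 328 and then 35.3 and 77.4 in HMGN1-OE cells. The log2 differences were -4.49 and -3.11 ± 0.59 (SE), and Cst7 was also called lower after centring.

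Of 18 other clade B serpins listed, the intracellular family of Serpinb1a, 6 passed the filter, and 1 was called higher and 2 lower in each genotype. After centring 4 were called higher in wild-type cells and 3 in HMGN1-OE cells, and 0 lower. On that scale 36.5% and 30.9% of all tested genes were called higher and 33.8% and 32.5% lower in the 2 genotypes, against 4.31% and 5.08% higher and 77.2% and 62.4% lower on the spike-in scale. Serpinb10 was the one called higher, from 1.73 and 0.758 to 20.8 and 7.60 FPKM in wild-type cells and from 1.62 and 1.10 to 11.4 and 11.9 in HMGN1-OE cells, a log2 difference of 2.64 and 2.43 ± 0.43 (SE). Serpinb9 (granzyme B inhibitor) and Serpinb11 were called lower on the spike-in scale, by -1.46 and -1.14 in wild-type cells, and both signs turned after centring. In HMGN1-OE cells Serpinb9 (-0.99) lost its call without the first library at 0 h, and Serpinb11 without the second at 0 h (-0.67) or either at 96 h. Of 11 other WAP domain genes listed, the family of Slpi, 1 passed, Wfdc17. It was called lower from 0 to 96 h, by -2.63 and -2.89 ± 0.52 (SE), but not after centring, and by -1.63 in wild-type cells without the first library at 96 h. At 36 h Wfdc17 was lower in HMGN1-OE cells, at 8.43 and 11.8 FPKM, than in wild-type cells, at 56.5 and 45.6, and this was called on the spike-in scale (-2.24) and not after centring (-1.66), nor without either HMGN1-OE library (-2.02 and -2.46) or the first wild-type library (-2.09) at 36 h.

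Of 15 secreted or matrix inhibitors listed, 6 passed the filter, with 2 called higher and 4 lower in each genotype, and after centring 2 higher and 3 and 4 lower, beside the same shares of all tested genes. The 2 called higher, named after their values were seen, were Timp2, a metalloproteinase inhibitor, and Spint1, a Kunitz-type inhibitor. Both passed the filter only through libraries at 96 h, where they were high, so a higher value at 96 h was fixed by the filter and their count is no support. Timp2 went from 0.125 and 0.194 to 2.60 and 4.02 FPKM in wild-type cells and from 0.180 and 0.170 to 1.13 and 0.949 in HMGN1-OE cells, log2 differences of 1.88 and 0.80, the latter not called without any 1 of its 4 libraries. Spint1 went from 0.157 and 0.667 to 1.86 and 3.85 FPKM and from 0.159 and 0.219 to 2.06 and 2.56, by 1.42 and 1.47 on the log2 scale. Serpina3g, a cathepsin-inhibiting serpin, fell from 156 and 191 FPKM to 6.04 and 2.11 in wild-type cells and from 280.0 and 188 to 1.86 and 5.42 in HMGN1-OE cells. Serpina3f fell from 23.4 and 28.2 FPKM to 1.05 and 0.372 in wild-type cells, by -3.99 and -4.22 on the log2 scale in the 2 genotypes. Serpinf1 was called lower by -4.73 and -3.02, and Spint2 by -2.46 and -2.17, the latter not without the first HMGN1-OE library at 0 h (-1.57).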
